A study of Mus musculus with 20 samples.

Results

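Complement and coagulation factors are the plasma proteins of innate defence and of clotting, most of them made by the hepatocyte. A list of 41 such genes, 21 of complement and 20 of coagulation, was matched to array probe sets annotated to 1 gene only, and for each gene the probe set brightest on average across all 20 arrays stood for it. Of the 41 genes, 37 were measured in this way, 18 of complement and 19 of coagulation, out of 18193 genes with a probe set of their own. C3, Cfd and Cpb2 are not analysed here, and C4b shared its probe set with C4a. All 37 genes had a mean signal far above the filter on low values (9.0), the lowest being Pros1 at 211.

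Complement is set off by antibody through the C1 complex, by sugars through the mannose-binding lectins and their MASP proteases, or by itself through factor B. Each route builds a convertase, and the late components C5 to C9 then assemble into the membrane attack complex, a pore in the target membrane. Clotting runs from the contact system or tissue factor through vitamin K dependent proteases to thrombin, which turns fibrinogen into fibrin, while antithrombin and the protein C system hold it back and plasmin dissolves the clot.

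The mice were BALB/c males that arrived at 6 weeks of age, with 1 array per mouse and 5 arrays per group. Diabetes was induced by 1 intraperitoneal injection of 185 mg/kg streptozotocin (STZ), which destroys pancreatic beta cells. Only injected mice with a blood glucose of 330 to 590 mg/dL were assigned to a diet, per the labels. The groups were STZ mice on plain AIN93G diet, STZ mice on this diet with 0.1% phloridzin, STZ mice on it with 0.5% phloridzin, and untreated mice on plain AIN93G diet, each for 14 days. Phloridzin is a plant glucoside that blocks sodium-glucose cotransporters. Untreated mice had no injection, so the toxin and its injection cannot be told apart. Every STZ mouse had both the toxin and a high blood glucose, so the toxin and diabetes cannot be told apart either. Each group had 6 mice, of which 5 had an array.

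The deposited value of a probe set is a linear signal, scaled so that the mean of each array without its lowest and highest 2% was 100. Whole liver was sampled, so fewer cells of a type and less RNA per cell cannot be told apart. The hepatocyte markers were among the brightest genes, with Alb at a mean signal of 13712. Of the 8 measured, 0 were called in STZ against untreated liver, beside 13.8% of all genes. Their sum of signals was 64424 to 89711 in STZ mice against 85755 to 97060 in untreated mice. Of the arrays, 2 stood apart. 0.1% phloridzin replicate 4 had a highest signal of 37014, against at most 20257 on the other 19 arrays, and a median over the 260 brightest genes of 7543, against 5198 to 6245 elsewhere. STZ replicate 1 had levels of several late complement genes nearer to those of untreated mice than the other 4 STZ mice. Where leaving out such an array changes a call or a sign named here, the value without it is given.

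In STZ against untreated liver, the measured genes of the membrane attack complex other than Hc were called lower, Mbl2 rose and its paralogue Mbl1 fell. Limma called 12 of the 37 members (adjusted p below 0.05), beside 13.8% of all 12952 genes tested. Of these, 3 were higher and 9 were lower, beside 6.9% and 6.93% of all genes. At an unadjusted p under 0.05 there were 21 members, beside 28.4% of all genes. Complement had 8 of 18 members called (1 higher, 7 lower) and coagulation 4 of 19 (2 higher, 2 lower). The median log2 difference was −0.19 for complement and −0.09 for coagulation, beside −0.05 for all genes. For 9 members the 5 STZ mice and the 5 untreated mice had ranges that were apart, beside 12.9% of all genes, with 3 higher (6.12% of all genes) and 6 lower (6.79%). Without STZ replicate 5 the count of called members was 7, with array weights it was 19, and without STZ replicate 1 it was 13. The calls of C1ra, Mbl1, Mbl2, C6, C8a, C8b and Pros1 held under all 30 alternative settings.

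The membrane attack complex had the largest changes of the 11 roles: 5 of its 6 measured genes were called lower in STZ liver, and its median log2 difference was −0.98. C7, of the same complex, was not measured. C6, the component that binds C5b, had signals of 1063, 221, 361, 334 and 178 in the 5 STZ mice, against 2189, 1295, 1613, 1304 and 1448 in the 5 untreated mice. All 5 STZ mice lay below every untreated mouse, with STZ replicate 1 well above the other 4. The level was 4.25-fold lower in STZ liver (log2 −2.09 ± 0.52, SE, adjusted p = 0.0111), and 5.57-fold lower without STZ replicate 1 (adjusted p = 0.00257). Each fold was taken after adding 16 to the signal, the scale of the fit.

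C8a, the alpha chain of C8 that takes part in the pore, had signals of 4107, 1539, 2512, 2809 and 2096 in STZ mice, against 6602, 5358, 5389, 5452 and 6144 in untreated mice. The groups did not overlap, and C8a was 2.32-fold lower in STZ liver (log2 −1.21 ± 0.25, adjusted p = 0.00355), and 2.63-fold lower without STZ replicate 1. C8b, the beta chain, had signals of 1331, 556, 896, 978 and 783 in STZ mice, against 2152, 1589, 1581, 1330 and 1505 in untreated mice. STZ replicate 1 met the lowest untreated mouse, and the other 4 STZ mice lay below all 5. C8b was 1.83-fold lower (log2 −0.87 ± 0.22, adjusted p = 0.0129), and 2.03-fold lower without STZ replicate 1. C8g, the lipocalin chain of C8, had signals of 5923, 4543, 4417, 5381 and 4691 in STZ mice, against 6087, 6528, 6393, 6464 and 7451 in untreated mice. The ranges were apart by a narrow gap, and the difference was smaller than for the other C8 chains at 1.32-fold (log2 −0.40 ± 0.11, adjusted p = 0.0193). Its call was lost without STZ replicate 3 or without STZ replicate 5, with an adjusted p of at most 0.0533.

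C9, which polymerises into the pore, had signals of 6250, 2563, 3986, 4374 and 2394 in STZ mice, against 8403, 6819, 7202, 7164 and 9957 in untreated mice. No STZ mouse reached the lowest untreated one. C9 was 2.13-fold lower in STZ liver (log2 −1.09 ± 0.29, adjusted p = 0.0170), and its adjusted p was 0.0567 without STZ replicate 5. Without STZ replicate 1 it was 2.43-fold lower. Hc, which encodes C5, averaged 3154 ± 342 in STZ mice and 3727 ± 260 in untreated mice (SD, n = 5 each) and did not pass the test (log2 −0.24 ± 0.09, adjusted p = 0.0783). Without STZ replicate 1 its adjusted p was 0.0374.

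The fall was present in the phloridzin groups too. C6 signals were 840, 559, 202, 212 and 113 in 0.1% phloridzin mice and 180, 964, 546, 807 and 198 in 0.5% phloridzin mice. For C8a they were 4232, 3194, 2392, 2464 and 1590 at 0.1% and 2200, 4245, 3159, 3469 and 1947 at 0.5%. Of the 15 STZ mice on any diet, 15 lay below every untreated mouse for each of C6, C8a and C9, and 14 did so for C8b and for C8g. C8b signals were 1244, 886, 682, 702 and 528 at 0.1% and 753, 1153, 992, 1255 and 761 at 0.5% phloridzin. C9 signals were 5729, 4393, 2425, 3142 and 2156 at 0.1% and 3000, 5529, 5626, 5403 and 2444 at 0.5% phloridzin. C8g signals were 6032, 6078, 5830, 7442 and 5209 at 0.1% and 5655, 5759, 5778, 5189 and 4390 at 0.5% phloridzin. Within each diet group the mice differed widely for C6. Its signals ran from 178 to 1063 in STZ mice, 113 to 840 at 0.1% and 180 to 964 at 0.5% phloridzin. The lowest untreated mouse was at 1295.

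**Figure D1:**
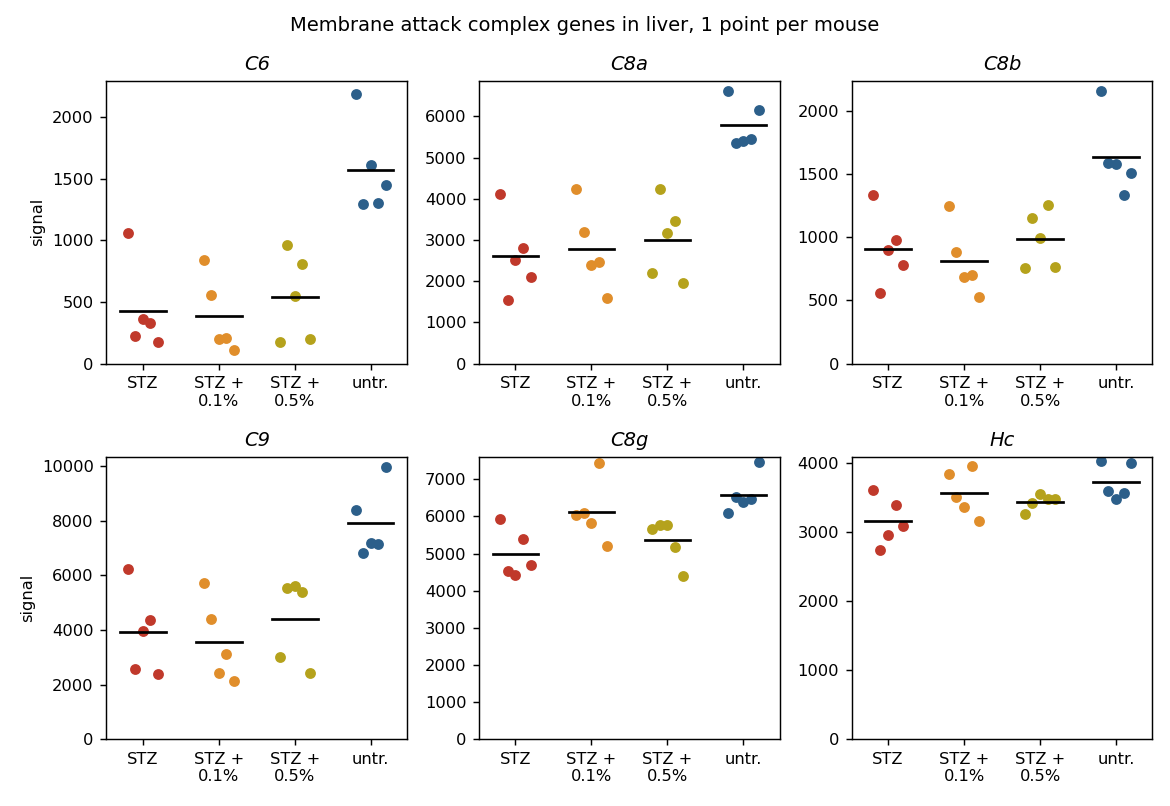
Signal (linear axis from 0) of the 6 membrane attack complex genes in each liver, 1 point per mouse and 5 per group, with the group mean as a bar; the groups run from STZ and the 2 phloridzin doses to untreated (untr.). For C6, C8a and C9 all 15 STZ mice lie below the 5 untreated mice.

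The genes of C8a and C8b stand next to each other on mouse chromosome 4, with 0 protein-coding genes between them, and C6 and C9 both lie on chromosome 15, with 8 protein-coding genes between them. Their promoter windows are shown, with those of the lectin genes Mbl1 and Mbl2 that moved in opposite directions. These 6 genes are a choice among the called members. Each window is 300 bases, most of them before the start of the gene, and is written 5′ to 3′ from RefSeq on GRCm38.p6, with motif matches in capitals. The windows are chr15:4726960-4727259 (plus strand) for C6, chr4:104876349-104876648 (minus strand) for C8a, chr4:104766067-104766366 (plus strand) for C8b, chr15:6445096-6445395 (plus strand) for C9, chr14:41151206-41151505 (plus strand) for Mbl1 and chr19:30232678-30232977 (plus strand) for Mbl2.
C6: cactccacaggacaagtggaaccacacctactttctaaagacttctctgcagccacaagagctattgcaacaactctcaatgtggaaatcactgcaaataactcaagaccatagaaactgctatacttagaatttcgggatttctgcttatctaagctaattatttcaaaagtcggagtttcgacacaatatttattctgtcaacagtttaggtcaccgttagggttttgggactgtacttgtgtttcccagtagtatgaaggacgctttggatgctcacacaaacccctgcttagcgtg
C8a: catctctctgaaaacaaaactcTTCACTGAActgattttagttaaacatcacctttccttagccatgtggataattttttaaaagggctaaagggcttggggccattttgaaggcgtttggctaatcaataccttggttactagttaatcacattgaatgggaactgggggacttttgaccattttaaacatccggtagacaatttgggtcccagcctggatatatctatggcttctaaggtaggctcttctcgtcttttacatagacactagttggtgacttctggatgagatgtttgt
C8b: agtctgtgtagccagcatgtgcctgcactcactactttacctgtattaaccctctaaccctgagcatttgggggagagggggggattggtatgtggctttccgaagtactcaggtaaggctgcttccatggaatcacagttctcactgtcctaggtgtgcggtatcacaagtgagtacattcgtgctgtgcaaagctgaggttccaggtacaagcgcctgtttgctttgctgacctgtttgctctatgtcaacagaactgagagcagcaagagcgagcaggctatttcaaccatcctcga
C9: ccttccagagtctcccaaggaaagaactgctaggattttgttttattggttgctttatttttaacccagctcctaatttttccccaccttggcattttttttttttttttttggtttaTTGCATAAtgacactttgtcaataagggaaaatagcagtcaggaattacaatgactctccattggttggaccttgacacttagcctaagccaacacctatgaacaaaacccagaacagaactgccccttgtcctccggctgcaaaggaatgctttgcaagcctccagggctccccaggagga
Mbl1: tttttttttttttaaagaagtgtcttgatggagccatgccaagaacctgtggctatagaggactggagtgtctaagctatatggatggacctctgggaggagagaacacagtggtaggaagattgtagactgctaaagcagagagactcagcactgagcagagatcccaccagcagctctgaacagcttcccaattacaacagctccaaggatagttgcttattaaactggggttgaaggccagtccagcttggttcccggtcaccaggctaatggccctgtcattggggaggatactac
Mbl2: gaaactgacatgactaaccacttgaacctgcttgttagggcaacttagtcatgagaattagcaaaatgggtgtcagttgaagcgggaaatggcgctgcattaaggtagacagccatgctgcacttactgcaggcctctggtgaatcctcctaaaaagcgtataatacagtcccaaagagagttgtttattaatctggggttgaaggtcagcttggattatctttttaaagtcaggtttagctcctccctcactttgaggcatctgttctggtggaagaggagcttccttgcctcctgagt
The motifs searched on both strands were TTCNNNGAA (STAT), TTGCNNAA (C/EBP), CAAAGTCCA (HNF4) and GTTAATNAT (HNF1), and matches of different motifs may overlap. C8a held 1 STAT match, TTCACTGAA, starting at −228 from the gene start, and C9 held 1 C/EBP match, TTGCATAA, starting at −132. The windows of C6, C8b, Mbl1 and Mbl2 held 0 matches. Of 32851 mouse promoter windows of this length, 8.30% held the STAT motif, 10.8% the C/EBP motif, 0.475% the HNF4 motif and 0.801% the HNF1 motif. Of the 29 measured members with a window, 7, 8, 0 and 4 held them, in the same order, and of the 9 called lower in STZ liver 3, 4, 0 and 0. A match of letters is a description of the sequence and not evidence of binding.

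Among the lectin pathway genes, Mbl2, the mannose-binding lectin C, was the most strongly raised member. Its signals were 7931, 6686, 7030, 8188 and 7290 in STZ mice, 8236, 9225, 8015, 14257 and 6899 in 0.1% phloridzin mice and 7896, 8085, 7910, 8265 and 7568 in 0.5% phloridzin mice, against 4471, 3345, 4102, 4092 and 3953 in untreated mice. All 15 STZ mice lay above all untreated mice, and the level was 1.86-fold higher in STZ liver (log2 0.89 ± 0.14, adjusted p = 0.000272). Mbl1, the mannose-binding lectin A, went the other way. Its signals were 1593, 1274, 1474, 2002 and 1369 in STZ mice, 1795, 1660, 1483, 1515 and 1309 in 0.1% phloridzin mice and 1475, 1954, 1567, 1666 and 1323 in 0.5% phloridzin mice, against 2146, 1959, 2391, 1957 and 2454 in untreated mice. STZ replicate 4 was the 1 diabetic mouse inside the untreated range, and Mbl1 was 1.42-fold lower in STZ liver (log2 −0.51 ± 0.13, adjusted p = 0.0115).

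The MASP proteases, which act on C4 and C2, did not pass the test in STZ liver. Masp1 had a log2 difference of −0.03 ± 0.10 on its brightest probe set, while its other 4 probe sets gave −0.38 to −0.50. With the mean of probe sets Masp1 was called lower (log2 −0.36, adjusted p = 0.0223). Masp2 had −0.13 ± 0.10 on the probe set used and 0.24 on the other.

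Of the C1 genes, C1ra, a protease of the C1 complex, had signals of 1366, 948, 1136, 1035 and 1112 in STZ mice, 1293, 1195, 1110, 1177 and 1035 in 0.1% phloridzin mice and 1044, 1218, 1276, 1346 and 1392 in 0.5% phloridzin mice, against 1805, 1558, 1402, 1415 and 1361 in untreated mice. STZ replicate 1 touched the untreated range and the other 4 STZ mice lay below it. C1ra was 1.35-fold lower in STZ liver (log2 −0.43 ± 0.11, adjusted p = 0.0131). C1qa, C1qb and C1qc, the chains of the recognition molecule C1q, are made mainly by macrophages. Their log2 differences were 0.21, 0.42 and 0.29 in STZ against untreated liver, and none passed the test (lowest adjusted p = 0.125, C1qb). C1qb signals were 450, 263, 315, 483 and 364 in STZ mice, 518, 484, 328, 314 and 368 in 0.1% phloridzin mice and 390, 433, 320, 515 and 425 in 0.5% phloridzin mice, against 317, 321, 279, 261 and 193 in untreated mice. The groups overlapped, and C1qb was called higher in both phloridzin groups against untreated. Its other 2 probe sets gave −0.01 and −0.12 in STZ against untreated liver, so the direction rests on 1 probe set. Of 12 Kupffer cell and macrophage markers, 1 was higher (Cd5l) and 1 lower (Lyz2) in STZ liver, beside 6.9% and 6.93% of all genes. The summed signal of the 12 markers was 3350 to 4504 in STZ mice against 3333 to 3936 in untreated mice. Their part in the C1q values was not tested.

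Convertase components and inhibitors held 0 called members in STZ liver. Cfb, factor B of the alternative pathway, had signals of 2497, 1635, 2049, 2288 and 2526 in STZ mice, 2526, 2578, 2455, 2782 and 2330 in 0.1% phloridzin mice and 2441, 2290, 2268, 2407 and 2849 in 0.5% phloridzin mice, against 2295, 1923, 1829, 2234 and 1869 in untreated mice. The 5 mice at 0.1% phloridzin all exceeded the untreated mice, and the adjusted p of that comparison was 0.0567. C2, the partner of C4 in the classical convertase, had a log2 difference of −0.05 ± 0.10 in STZ against untreated liver.

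Cfi, which cleaves C3b and C4b, had signals of 6924, 4861, 5287, 6261 and 5677 in STZ mice, 6885, 6872, 6309, 7418 and 5687 in 0.1% phloridzin mice and 6142, 6493, 5932, 6670 and 6211 in 0.5% phloridzin mice, against 6284, 6016, 5901, 6400 and 5935 in untreated mice. The STZ mice lay on both sides of the untreated range. C4bp, its cofactor for C4b, averaged 3072 ± 879 in STZ mice and 4297 ± 291 in untreated mice (log2 −0.52 ± 0.18, adjusted p = 0.0539). STZ replicate 1, at 4605, was inside the untreated range, and without it C4bp was called lower (log2 −0.67, adjusted p = 0.00722). C4bp passed in 11 of 30 alternative settings.

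In the contact system, which starts clotting on surfaces and releases bradykinin, Kng1 rose and F11 fell. Kng1, the kininogen from which bradykinin is cut, had signals of 8536, 7674, 7356, 10060 and 8421 in STZ mice, 8758, 9058, 9572, 12790 and 8782 in 0.1% phloridzin mice and 9090, 7673, 8493, 8541 and 9034 in 0.5% phloridzin mice, against 6245, 6406, 6560, 6869 and 6713 in untreated mice. Every STZ mouse exceeded every untreated mouse, and the level was 1.27-fold higher in STZ liver (log2 0.35 ± 0.11, adjusted p = 0.0331). A second Kng1 probe set gave 0.00, and with the mean of the probe sets the difference was 0.18 (adjusted p = 0.164). Without STZ replicate 1 the adjusted p of the probe set used was 0.051. F11, the zymogen that activates factor IX, had signals of 1171, 709, 862, 828 and 590 in STZ mice, 1106, 924, 640, 644 and 616 in 0.1% phloridzin mice and 687, 1020, 742, 1174 and 785 in 0.5% phloridzin mice, against 1485, 1254, 1118, 1384 and 982 in untreated mice. STZ replicate 1 fell inside the untreated range. F11 was 1.51-fold lower (log2 −0.59 ± 0.19, adjusted p = 0.0452), and this call was lost in 11 of 30 alternative settings. Klkb1, which encodes prekallikrein and neighbours F11 on chromosome 8, had −0.28 ± 0.11 (adjusted p = 0.0904), and F12 had −0.04 ± 0.09.

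The vitamin K dependent factors F7, F9, F10 and F2 and the cofactor F5 held 0 called members in STZ liver, with log2 differences of 0.30, 0.13, 0.16, −0.09 and 0.25. F7, which starts clotting with tissue factor, had signals of 798, 787, 840, 964 and 1011 in STZ mice, 861, 867, 981, 961 and 1003 in 0.1% phloridzin mice and 1025, 681, 818, 912 and 1075 in 0.5% phloridzin mice, against 690, 863, 630, 728 and 660 in untreated mice. F10, the next protease and the neighbour of F7 on chromosome 8, had signals of 2528, 2493, 2499, 2716 and 3008 in STZ mice, 2658, 2733, 3188, 3108 and 3109 in 0.1% phloridzin mice and 3075, 2269, 2482, 2639 and 3239 in 0.5% phloridzin mice, against 2594, 2338, 2251, 2611 and 2081 in untreated mice. The 0.1% phloridzin mice all exceeded the untreated mice for F10 and for F9, while STZ and untreated mice overlapped. F5, the cofactor of F10, had signals of 2309, 2623, 2597, 2211 and 2676 in STZ mice, 2192, 1983, 2740, 2300 and 2675 in 0.1% phloridzin mice and 2461, 2268, 2767, 2527 and 3157 in 0.5% phloridzin mice, against 1967, 2018, 2054, 2269 and 2119 in untreated mice. Its second probe set gave 0.26 in STZ against untreated liver, beside 0.25 on the first.

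Fibrinogen, built of 3 chains, had the brightest members. Fgb, the beta chain, had signals of 10382, 7323, 7979, 10343 and 8631 in STZ mice, 11564, 12739, 10594, 16452 and 9195 in 0.1% phloridzin mice and 9057, 10208, 8765, 10233 and 10016 in 0.5% phloridzin mice, against 12197, 11726, 11256, 12752 and 10949 in untreated mice. All 5 STZ mice lay below the untreated mice, and Fgb was 1.33-fold lower (log2 −0.41 ± 0.13, adjusted p = 0.0405), a call lost in 12 of 30 alternative settings. Fga and Fgg, the alpha and gamma chains, had log2 differences of −0.32 ± 0.15 (adjusted p = 0.159) and −0.35 ± 0.15 (adjusted p = 0.128). Without 0.1% phloridzin replicate 4 the adjusted p of Fga was 0.0467. F13b, the carrier chain of the cross-linking factor XIII, had −0.03 ± 0.09.

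Of the anticoagulants, 1 of 4 was called. Pros1, protein S, the cofactor of activated protein C, had signals of 209, 212, 231, 235 and 238 in STZ mice, 238, 232, 217, 203 and 269 in 0.1% phloridzin mice and 235, 174, 265, 212 and 260 in 0.5% phloridzin mice, against 158, 158, 163, 163 and 154 in untreated mice. All 15 STZ mice lay above the untreated mice, whose spread was narrow. Pros1 was 1.37-fold higher in STZ liver (log2 0.46 ± 0.10, adjusted p = 0.00517). Proc, Serpinc1 and Serpind1, which encode protein C, antithrombin and heparin cofactor II, had differences of −0.12, −0.09 and 0.01. In fibrinolysis, Plg, the precursor of plasmin, had signals of 9124, 6575, 7672, 9200 and 8273 in STZ mice, 9574, 11139, 10084, 13933 and 8636 in 0.1% phloridzin mice and 9436, 8954, 8120, 8660 and 8658 in 0.5% phloridzin mice, against 9482, 9111, 9122, 9593 and 9869 in untreated mice. The ranges overlapped, and neither Plg (−0.22 ± 0.11, adjusted p = 0.219) nor Serpinf2, the plasmin inhibitor (−0.27 ± 0.11, adjusted p = 0.0955), passed the test.

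**Figure D2:**
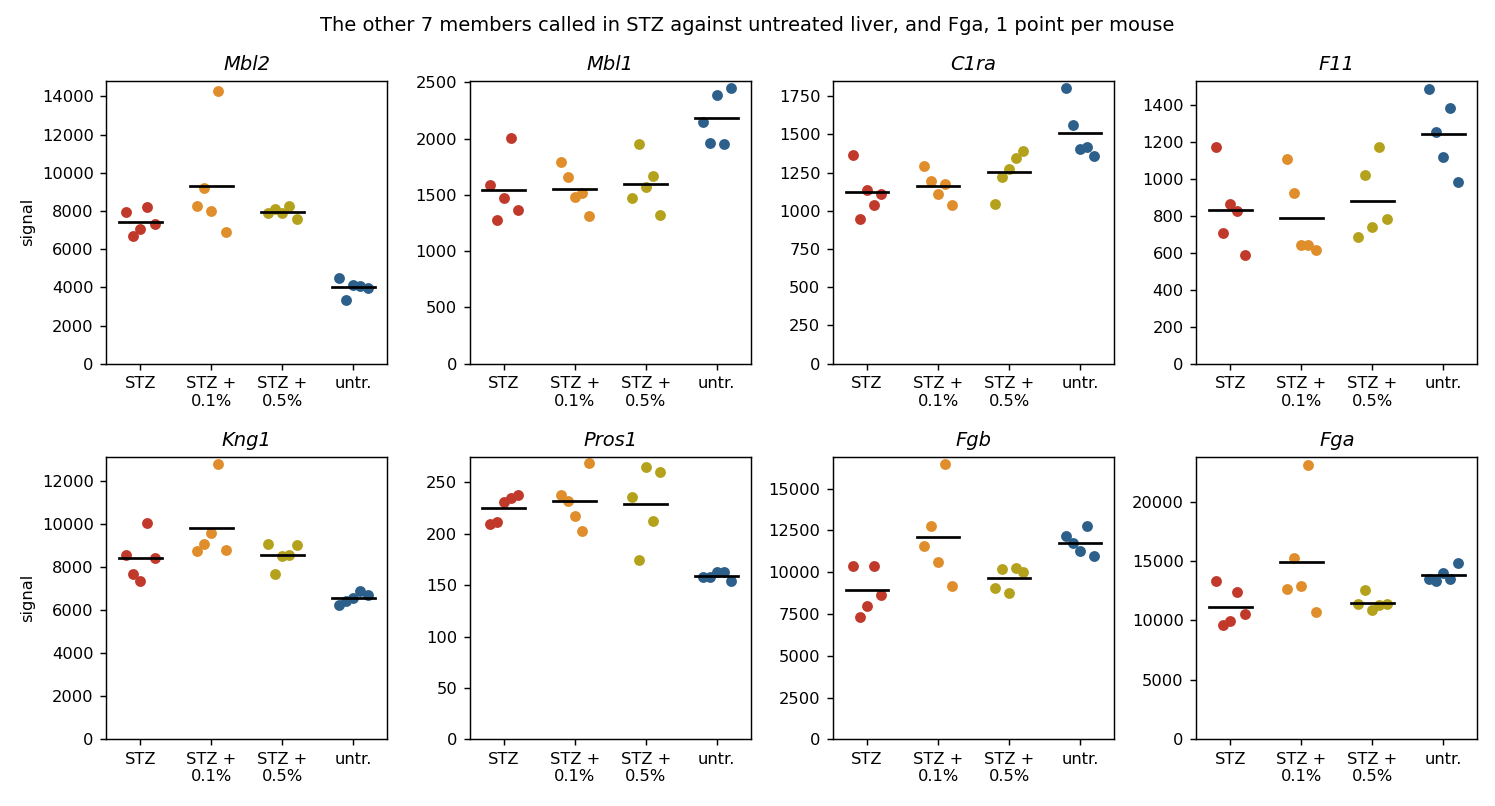
Signal (linear axis from 0) of the 7 members outside the membrane attack complex that were called in STZ against untreated liver, and of Fga, 1 point per mouse and 5 per group, with the group mean as a bar. Mbl2, Kng1 and Pros1 are higher in all 15 STZ mice than in the untreated (untr.) mice, and 0.1% phloridzin replicate 4 is the highest point for Mbl2, Kng1, Fgb and Fga.

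Complement and coagulation were then set against each other in each mouse. The mean log2 level over the 18 complement members minus that over the 19 coagulation members was −1.02 ± 0.19 in STZ mice, −1.10 ± 0.22 in 0.1% phloridzin mice and −0.94 ± 0.20 in 0.5% phloridzin mice, against −0.77 ± 0.11 in untreated mice (SD, n = 5 each). The groups overlapped, with −1.20 to −0.73 in STZ mice against −0.91 to −0.60 in untreated mice. The complement mean itself was 10.49 ± 0.27 in STZ mice against 10.81 ± 0.10 in untreated mice, and the coagulation mean 11.51 ± 0.10 in STZ mice against 11.57 ± 0.04 in untreated mice. In these means, the difference in complement lay with the membrane attack complex. Its 6 genes averaged 10.89 ± 0.45 in STZ mice against 11.88 ± 0.14 in untreated mice, while the other 12 complement members averaged 10.28 ± 0.18 in STZ mice and 10.27 ± 0.10 in untreated mice. The near-equal mean of those 12 holds changes in both directions that offset each other, since Mbl2 was called higher, and Mbl1 and C1ra lower. Without the 6 genes, complement minus coagulation was −1.23 ± 0.09 in STZ mice against −1.30 ± 0.10 in untreated mice. These means describe the list and were not tested, since the members were chosen with results known.

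Both phloridzin groups were also set against untreated mice, the same 5 arrays as above. At 0.1% phloridzin 13 members were called, beside 16.8% of all genes, 6 of them higher (7.77% of all genes) and 7 lower (9.03%). At 0.5% phloridzin 10 members were called, beside 12.7% of all genes, 5 of them higher (6.54%) and 5 lower (6.2%). Unadjusted p-values under 0.05 were found for 17 members at 0.1%, beside 30.9% of all genes, and for 19 at 0.5%, beside 27.2%. Ranges were apart for 12 members at 0.1% (13.2% of all genes), 6 higher (6.03%) and 6 lower (7.13%), and for 12 at 0.5% (11.2%), 3 higher (5.42%) and 9 lower (5.74%). C6 had −2.30 ± 0.52 at 0.1% (adjusted p = 0.00535) and −1.78 ± 0.52 at 0.5% (adjusted p = 0.0295), C8a −1.13 and −1.0, C9 −1.23 and −0.91, and C8b −1.04 and −0.73, all called. C8g was not called at either dose. Mbl2 was higher by 1.18 ± 0.14 and 1.00 ± 0.14, and Kng1 by 0.56 and 0.38; without 0.1% phloridzin replicate 4 the values at 0.1% were 1.02 and 0.46, both still called. Pros1 was higher by 0.50 and 0.47, and Mbl1 was lower at −0.49 and −0.45. C1qb was higher by 0.52 and 0.58 (adjusted p = 0.0491 and 0.0363).

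Calls at 1 dose alone were F7 (0.39, adjusted p = 0.0309), F10 (0.32, adjusted p = 0.0440), F11 (−0.68, adjusted p = 0.0200) and C1ra (−0.37, adjusted p = 0.0256) at 0.1%, and F5 (0.33, adjusted p = 0.0449) at 0.5% phloridzin. None of these passed the test between the doses given below. Of the 30 alternative settings, the 0.1% calls of C6, C8a, C8b, C9, Mbl1, Mbl2, Kng1 and Pros1 were lost in 0, against 4 for C1ra and for F11, 6 for F7, 11 for F10 and 17 for C1qb. The 0.5% calls were lost in 0 for C8a, Mbl2 and Pros1, 3 for Kng1, 4 for Mbl1, 5 for C6, 8 for C8b and for C1qb, 13 for C9 and 15 for F5. Without 0.1% phloridzin replicate 4 the 0.1% count was 10, with F7, F10 and F11 no longer called, and without 0.1% phloridzin replicate 5 it was 8. The 0.5% count was 3 without 0.5% phloridzin replicate 1 or 5, 5 without untreated replicate 1 or 5, and 4 without untreated replicate 3.

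Phloridzin against STZ alone asks whether the diet changed these genes in diabetic liver. Limma called 0 of 37 members and 0% of all genes at 0.1% phloridzin, 0 and 0% at 0.5% phloridzin, and 0 and 0% between the doses. At an unadjusted p under 0.05 there were 7 members at 0.1%, beside 5.28% of all genes, 1 at 0.5%, beside 4.83%, and 5 between the doses, beside 6.48%. The ranges of the mice were apart for 1 member at 0.1% (Masp2, higher, beside 0.679% of all genes in either direction and 0.332% higher), for 1 at 0.5% (C2, higher, beside 0.849% and 0.533%) and for 0 between the doses (0.803%). For C6 the difference was −0.21 at 0.1% phloridzin (95% interval −1.29 to 0.88) and 0.31 at 0.5% (−0.78 to 1.39). Without STZ replicate 1 it was 0.18 and 0.70, so that the sign at 0.1% turned. For C8a it was 0.09 (−0.44 to 0.62) and 0.22 (−0.31 to 0.75), and for C9 −0.14 (−0.75 to 0.47) and 0.18 (−0.43 to 0.78). Without STZ replicate 1 the values were 0.27 and 0.40 for C8a and 0.05 and 0.37 for C9, so that C9 turned sign at 0.1% as well. Mbl2 had 0.29 (−0.00 to 0.58) at 0.1%, or 0.12 without 0.1% phloridzin replicate 4, and 0.10 (−0.19 to 0.39) at 0.5%.

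The 95% interval of a member had a half-width of 0.15 (F9) to 1.09 (C6), with a median of 0.24, and 36 of the 37 intervals lay within 1 log2 unit of zero in each of these comparisons. The array data therefore leave changes of C6 in either direction unresolved at this number of mice. Differences were positive for 31 of 37 members at 0.1% and 35 of 37 at 0.5% phloridzin, beside 48.9% and 55.4% of all genes, with medians of 0.14 and 0.10 beside −0.00 and 0.02 for all genes. With quantile normalization they were positive for 28 members at 0.1%, with a median of 0.04, and for 35 at 0.5%, with a median of 0.09. These counts share the same 5 STZ arrays. Without STZ replicate 1 the median was 0.19 at 0.1% and 0.15 at 0.5% phloridzin, and 0 members were called.

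**Figure D3:**
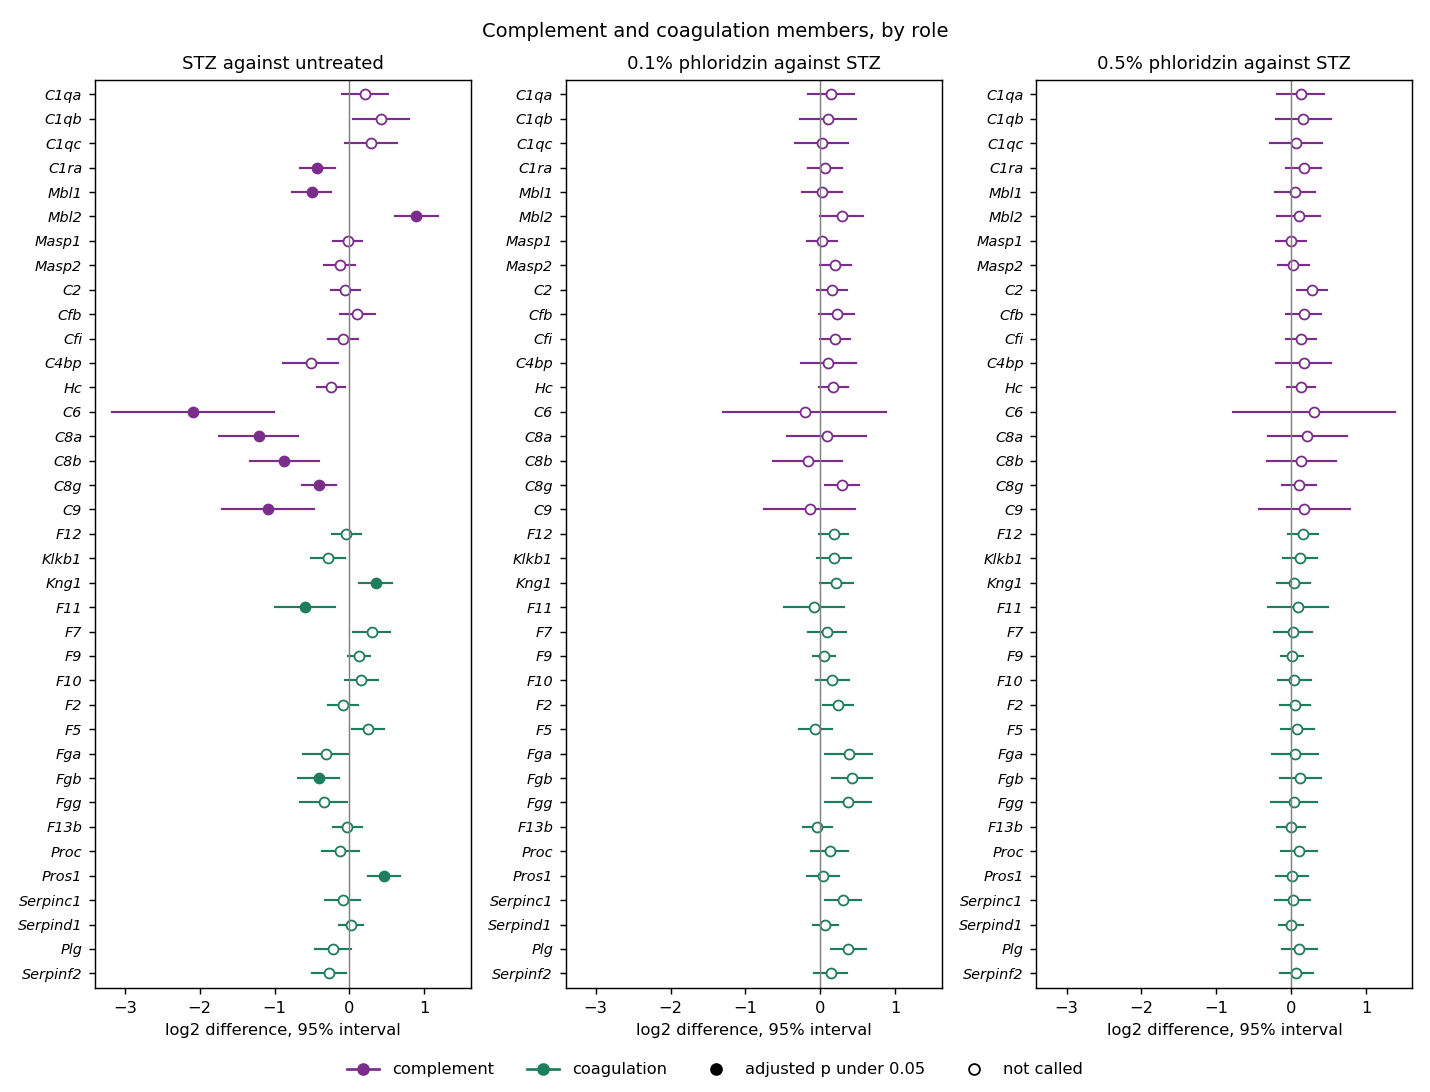
Log2 difference with its 95% interval for the 37 members in order of role, for STZ against untreated, 0.1% phloridzin against STZ and 0.5% phloridzin against STZ; filled points passed an adjusted p under 0.05. The 12 filled points are all in the first comparison, and C6 has the widest interval in each.

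The brightest members were checked for effects of array scale. Of the 260 brightest genes, 2% of those kept, 12 were members: Fga, Fgb, Fgg, Plg, Kng1, Serpinc1, F2, Mbl2, Cfi, C8g, C9 and Serpinf2. The median of all 260 was 0.17 log2 units higher at 0.1% phloridzin than in STZ mice, and −0.01 with quantile normalization. The 12 members had a median of 0.29 in that comparison, 0.18 without 0.1% phloridzin replicate 4, and 0.04 with quantile normalization. All 7 members at an unadjusted p under 0.05 there (C8g, F2, Fga, Fgb, Fgg, Serpinc1 and Plg) were among the 12.

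Fga, the brightest member, is given as an example. Its signals were 12654, 15234, 12924, 23095 and 10726 in 0.1% phloridzin mice, against 13357, 9629, 9959, 12389 and 10524 in STZ mice. Replicate 4 of the 0.1% group was far above the other 9 livers. The log2 difference of Fga at 0.1% phloridzin was 0.38, then 0.21 without that replicate and −0.01 with quantile normalization. Quantile normalization gives all arrays the same set of values, so for the brightest genes it can also shrink a difference not due to scale. The part of array scale in the Fga values was not tested. In STZ against untreated liver, Fga had −0.32 on the scaled signal and −0.05 with quantile normalization, and Fgb −0.41 and −0.27, where its adjusted p was 0.0558. Mbl2 (0.89 and 0.98), Kng1 (0.35 and 0.48), C8g (−0.40 and −0.34) and C9 (−1.09 and −1.07) were called on both scales. The members called in STZ against untreated liver numbered 12 on the scaled signal, 11 with quantile normalization and 11 with median centring.

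**Figure D4:**
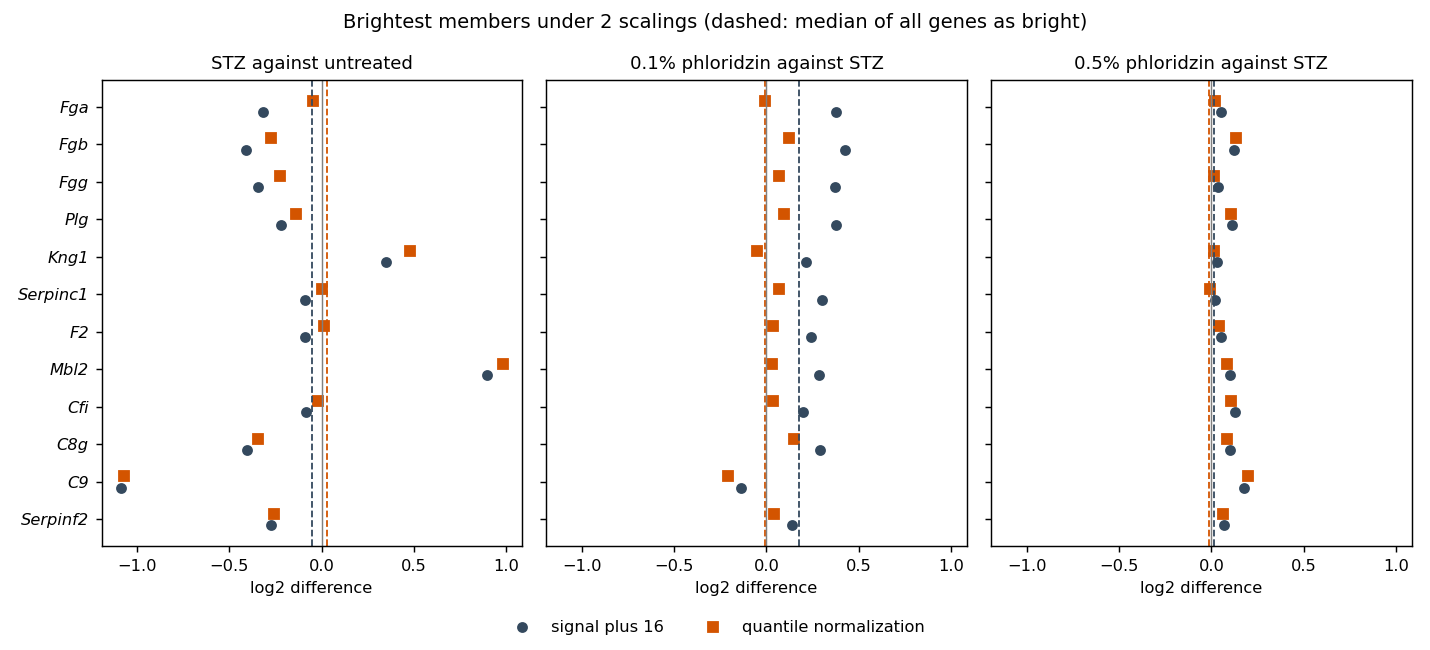
Log2 difference of the 12 brightest members on the deposited scale (signal plus 16, dark circles) and after quantile normalization (orange squares), with dashed lines at the median of the 260 brightest genes on each scale. At 0.1% phloridzin against STZ the circles lie right of the squares for all 12 members, whereas at 0.5% phloridzin the 2 scales nearly coincide.

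C6, C9, C8a and C8b also varied more between diabetic mice of a group than the other 33 members. The SD over the 3 diabetic groups, pooled, was 1.06 log2 units for C6, 0.58 for C9, 0.50 for C8a and 0.42 for C8b, against 0.35 for F11, the next, and 0.06 for F9, the lowest. Hc and C8g, of the same complex, had 0.12 and 0.18. In untreated mice the SD of C6 was 0.31. C6 was then taken, after its values were seen, as the measure against which the other 36 members were set over the 15 diabetic mice, each value minus its diet group's mean.

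C6 ran with C9 (Pearson r = 0.95, Spearman rho = 0.939), C4bp (0.949 and 0.939), C8a (0.942 and 0.961), C8b (0.919 and 0.939) and F11 (0.913 and 0.864). By a two-sided permutation test of 100000 resamples, adjusted over all 12951 other genes kept, each of these had an adjusted p between 0.000815 and 0.00351. The centred values were shuffled over all diabetic mice and not within diet groups, which can make the p-values too small. Passes close to the threshold, and the counts that follow, carry this limit. Over all members, 12 of 36 passed by both measures, beside 18.6% of all genes, 9 of them positive (11.3% of all genes) and 3 negative (7.37%). Passing this test was thus common across the arrays, while an r as high as that of F11 was not. It was reached or exceeded by 67 genes (0.517%). As F11 had the fifth highest r of the members, 5 of 36 members (13.9%) reach it by definition. The weaker positive members were Mbl1 (0.714 and 0.804), Klkb1 (0.696 and 0.707), C1qc (0.648 and 0.664) and C1ra (0.643 and 0.657). C1qa (0.695 and 0.643) passed by r but not by rho (permutation test, adjusted p = 0.0568). The negative ones were F10 (−0.798 and −0.761), F7 (−0.727 and −0.714) and F5 (−0.663 and −0.679), with adjusted permutation p-values between 0.00657 and 0.0401.

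The mice farthest from the median of C6 were STZ replicate 1 and 0.1% phloridzin replicate 1. Without them (n = 13) r was 0.924 for C9, 0.925 for C4bp, 0.907 for C8a, 0.868 for C8b, 0.856 for F11, −0.829 for F10, −0.731 for F7 and −0.66 for F5. For C1ra it was 0.424, for C1qc 0.46 and for C1qa 0.518. C8g (r = 0.456, rho = 0.518) and Hc (r = 0.562, rho = 0.611) did not pass the permutation test by either measure (lowest adjusted p = 0.076). The median signal of the brightest genes, a measure of array scale, had r = −0.281 with C6 (permutation p = 0.314). What sets the level of C6 in a mouse was not tested.

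**Figure D5:**
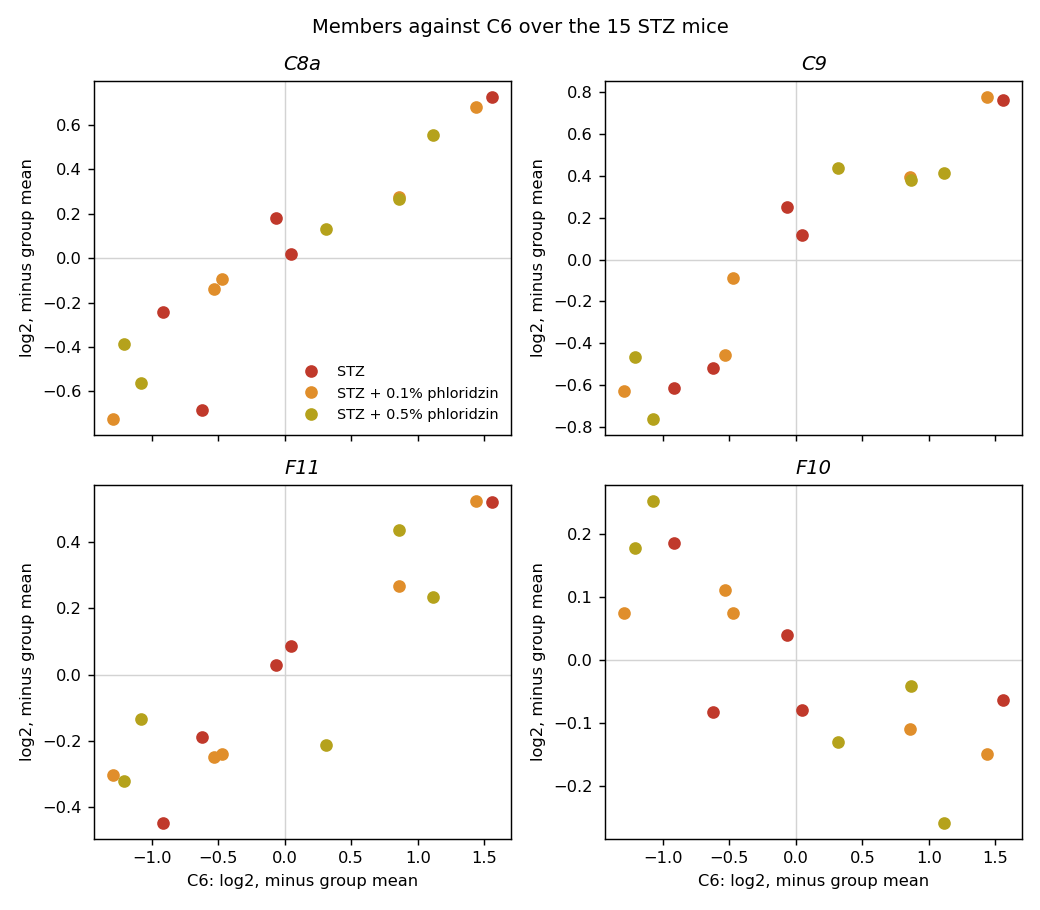
Level of C8a, C9, F11 and F10 against that of C6 in the 15 STZ mice, as log2 of the signal plus 16 minus the mean of the mouse's own diet group, 1 point per mouse. The first 3 genes rise with C6 and F10 falls, with mice of all 3 diet groups along each trend.

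Other genes of the 2 systems were counted for context, beside 13.8% of all genes called in STZ against untreated liver (6.9% higher and 6.93% lower). Of 17 measured further complement genes 1 was called in STZ against untreated liver, Cfhr2, a factor H related gene (log2 −0.42, adjusted p = 0.00329). Of 25 further coagulation and fibrinolysis genes 1 was higher and 4 were lower. Fgl1, a fibrinogen-like hepatokine, averaged 2408 ± 530 in STZ mice and 1174 ± 421 in untreated mice (log2 1.06 ± 0.22, adjusted p = 0.00278). Tfpi2, a protease inhibitor, averaged 648 ± 155 in STZ mice and 1501 ± 118 in untreated mice (−1.22 ± 0.27, adjusted p = 0.00538). Ggcx, the carboxylase that vitamin K dependent factors need, was lower by 0.62 on the log2 scale (adjusted p = 0.0072). Of the 6 measured members that depend on it, Pros1 was called higher, and F7, F9, F10, F2 and Proc did not pass the test. Mcfd2, which helps export factors V and VIII, and Hgfac were the other 2 called lower (−0.23 and −0.37). Fgl1, Tfpi2 and Ggcx were called in the same direction at both phloridzin doses against untreated.

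In STZ against untreated liver 6.9% of all genes were called higher and 6.93% lower. Of 20 genes that regulate these factors in liver, 1 was higher and 5 were lower. The bile acid receptor gene Nr1h4 was higher (0.39, adjusted p = 0.0214). The pioneer factor Foxa1 (−0.81, adjusted p = 0.000252), the repressor Bcl6 (−1.29, adjusted p = 0.00184), the interleukin-1 receptor subunit Il1rap (−0.33, adjusted p = 0.00636), the growth hormone receptor Ghr (−0.61, adjusted p = 0.0072) and its signal transducer Stat5b (−0.47, adjusted p = 0.0112) were lower. Of 18 acute phase genes, which mark inflammation of the liver, 3 were higher (Orm3, Lcn2 and Orm2) and 2 lower (Saa1 and Cp). Orm3 had low signals, averaging 34.8 in STZ mice against 4.33 in untreated mice. Its brighter relative Orm1 was not called (log2 −0.17). Saa1 averaged 760 ± 364 in STZ mice and 2633 ± 2358 in untreated mice, with a wide spread among the untreated mice.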

How the data were processed

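Total liver RNA of each mouse was labelled and hybridised to 1 Affymetrix mouse array, per the labels' protocols. The authors deposited intensity values, a linear signal per probe set, already scaled to a trimmed mean of 100 (checked on the 20 arrays). The sources used here do not name the software. The platform annotation gave 1 gene to 34945 of 45101 probe sets, or 18193 genes. Tests used log2(signal + 16). The filter on low values kept the 12952 genes whose mean signal reached the 40th percentile over probe sets (9.0). Limma 3.58.1 in R 4.3.3 was fitted with 4 group means and default eBayes, two-sided, with Benjamini and Hochberg adjustment over all genes kept, and tested on simulated data. The number of arrays limits the precision.

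Correlations used scipy 1.17.1, with p-values adjusted over all genes kept, and figures matplotlib 3.10.9. The members and lists were chosen with earlier results of these data known. Full values are given for members called in at least 1 comparison, and for the brightest member of a role with none; C4bp and Fga were added after their values were seen. Of other lists the called genes are named. Alternatives were 2 other scalings, other filters, a pseudocount of 1, the mean of probe sets, array weights, another prior, the groups compared alone, the replicate number as a block, and leaving out single arrays; leaving both outlying arrays out was added after seeing the data. Values with the same replicate number correlated over 0.1 in 13 of 30 pairs of arrays, with a range of −0.40 to 0.50. Since these run in both directions, they do not settle whether the numbers pair the mice.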

Additional observations from a re-analysis of the deposited data

Results flagged for a closer look

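In 10 of 148 groups of 5 mice, 1 mouse lay far from the other 4 for a member gene (its gap to the next mouse was over 0.71 of the group's range). Chance gives about 1 in 20. In STZ replicate 1, C6 had a signal of 1063 (next highest 361) and C4bp 4605 (next 2880). In 0.1% phloridzin replicate 4, Kng1 was at 12790 (next 9572), Serpinc1 at 12346 (next 9115) and Masp1 at 1142 (next 1003). In 0.5% phloridzin replicate 5, C2 was highest at 695 (next 572) and Masp2 lowest at 714 (next 795). Masp2 was also lowest in STZ replicate 2 at 670 (next 772). Klkb1 was highest in 0.5% phloridzin replicate 4 at 1760 (next 1428), and Proc in untreated replicate 5 at 4589 (next 3162). C2 had a log2 difference of 0.28 in 0.5% phloridzin against STZ on the probe set used (limma, adjusted p = 0.988), and its other 2 probe sets gave 0.16 and 0.23.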

How the results depend on the processing

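No member called in the 3 comparisons with untreated mice changed direction under any alternative, and 0 members were called in the phloridzin comparisons throughout. The count of called members in STZ against untreated was 19 with array weights and otherwise 10 to 16 among settings that kept all arrays or left both outlying ones out; with 1 array left out it was 7 to 13. For 0.1% phloridzin against untreated it was 8 to 14 with 1 array left out, and for 0.5% 3 to 10. The complement median minus the coagulation median was −0.10 in STZ against untreated and −0.21 to −0.08 over all settings. In 0.1% phloridzin against STZ it was −0.05 and took either sign (−0.12 to 0.06). All genes called in STZ against untreated numbered 1175 to 1999 with 1 array left out and 2862 with array weights; for 0.5% phloridzin against untreated 940 to 2188 and 2616. With the replicate block the count of called members was 14 for STZ, 15 for 0.1% and 10 for 0.5% phloridzin against untreated. Of members not called in STZ against untreated, C4bp passed in 11 alternatives (adjusted p 0.00616 to 0.0484), Fga, Fgg and Hc in 3 each, Serpinf2 in 2, and F5, Klkb1 and Masp1 in 1 each. Cfb at 0.1% phloridzin against untreated passed in some (adjusted p 0.0273 to 0.0494), among them leaving out STZ replicate 2 or untreated replicate 1. The cause of these changes was not tested. The scale of the arrays limits what can be said of fibrinogen, plasminogen and antithrombin, whose signals are near the top of the range.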

Other observations

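The probe set shared by C4a and C4b, the C4 genes of the classical convertase, averaged 4087 ± 814 in STZ mice, 4463 ± 721 in 0.1% phloridzin mice and 4317 ± 569 in 0.5% phloridzin mice, against 5596 ± 305 in untreated mice (SD, n = 5 each). It was not tested, since its signal cannot be given to either gene.

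Markers of other cells a liver sample can hold were counted in STZ against untreated liver, where 13.8% of all genes were called. B and plasma cell markers were lower for Ighm (log2 −2.08) and Jchain (−0.73), with a summed signal of 97.1 to 167 in STZ mice against 379 to 511 in untreated mice. The exocrine pancreas marker Cela1 was lower (−1.52), with sums of 427 to 896 in STZ mice against 1483 to 1961 in untreated mice. This sum is mostly Cela1, with a mean signal of 835 over 20 arrays. The other pancreas markers averaged 1.39 (Cpa1) to 23.6 (Prss2), and none of them was called. Stellate cell markers were lower for Reln, Pdgfrb and Col3a1, with sums of 1919 to 2844 in STZ mice against 2463 to 3872 in untreated mice. Not called were Lrat, Lum and Dcn (0.19, 0.12 and 0.11) and Des and Col1a1 (−0.08 and −0.09). Of 9 sinusoidal markers only Lyve1 was called, higher (1.19). The others ran from −0.24 (Stab2) to 0.01 (Pecam1), most of them negative, with sums over the list of 1695 to 2524 in STZ mice against 2219 to 2302 in untreated mice. Adipocyte markers had Cidec higher and Car3 lower, with sums of 8020 to 13616 in STZ mice against 13423 to 16549 in untreated mice. This sum is almost all Car3, with a mean signal of 11736 over 20 arrays, against at most 64.1 (Lipe) for the others. Adipoq, Lep, Retn and Cidea were below the filter on low values, so the sum does not measure adipocytes. Platelet Pf4 was lower (−0.51; sums of 104 to 163 in STZ mice against 140 to 184 in untreated mice), as were cholangiocyte Sox9 (−0.74; 40.4 to 69.2 in STZ mice against 47.8 to 65.7 in untreated mice) and the T and NK cell marker Gzma (−0.45; 43.5 to 68.2 in STZ mice against 49.1 to 76.0 in untreated mice). Sox9 had low signals, averaging 6.60 in STZ mice against 21.2 in untreated mice. The other cholangiocyte markers kept went the other way and were not called (Epcam 0.49, Krt19 0.18 and Krt7 0.12). The other platelet markers kept (−0.07 to 0.15) and T and NK cell markers kept (−0.05 to 0.04) were not called. Of the neutrophil markers 0 passed limma's adjusted p, with sums of 119 to 207 in STZ mice against 192 to 275 in untreated mice. The part of these cells in the levels of the complement and coagulation genes was not tested.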
